A study of Mus musculus with 6 samples.

Results

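Olfactory receptor genes, named Olfr in the mouse, were followed through the H3K9me3 peaks that the study lists as present in wild-type (WT) Bergmann glia (BG) and absent in Setdb1 mutant BG. Of 34673 such peaks, 383 had an olfactory receptor gene, by the authors' annotation, as the gene of the nearest transcription start site (TSS). Names ending in -ps, the pseudogenes by name, were left out. The 383 peaks lay at 283 of the 1117 receptor genes that RefSeq lists under names without -ps. The series holds H3K9me3 ChIP-seq of BG, the radial glia of the cerebellar cortex, from C57BL/6 mice at postnatal day 10, with 2 WT libraries, 2 mutant libraries and 2 control libraries labelled both input and IgG. In the study's methods the mutant carries floxed Setdb1 alleles deleted by mGFAP-Cre, a driver that recombines in cerebellar cells other than BG as well, and BG were sorted by a Nes-GFP reporter. The deposited list gives a position, a score and an annotation for each peak, and no value for any library. Depth and replicate spread are therefore unknown, WT BG could not be tested against mutant BG, and all intervals below are 95% intervals that cover counting error only. In sorted but bulk chromatin, a mark carried by fewer cells and a weaker mark in every cell cannot be told apart. The list holds no expression values, so the labelled cell type could not be set beside its markers.

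Olfactory receptors are G protein-coupled receptors of the nasal epithelium. Each olfactory sensory neuron expresses a single receptor allele and keeps all the others silent, and in those neurons the silent receptor genes carry H3K9me3. The genes are intronless in their coding part and lie side by side in clusters, between long stretches of retrotransposons. Setdb1 is the methyltransferase that places H3K9me3 on many retrotransposons, chiefly endogenous retroviruses. BG do not use these receptors in smell, and the receptor clusters are silent in most tissues.

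Sequences from 4 kinds of site were read from the GRCm38.p6 assembly, the same build as mm10, since the results below turn on them. The first kind is receptor coding sequence under a peak. Stretches of 81 bases, each wholly covered by a peak, are shown for 6 genes, in the direction of transcription, with the codons for Asp, Arg and Tyr in capitals. These codons encode a signature of this receptor superfamily and align the genes to each other.

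Olfr656 (chr7:104618011-104618091, plus strand): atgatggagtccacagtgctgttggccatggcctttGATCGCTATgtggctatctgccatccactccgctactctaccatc
Olfr543 (chr7:102477449-102477529, minus strand): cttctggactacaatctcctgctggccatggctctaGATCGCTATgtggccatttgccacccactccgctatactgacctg
Olfr545 (chr7:102494357-102494437, minus strand): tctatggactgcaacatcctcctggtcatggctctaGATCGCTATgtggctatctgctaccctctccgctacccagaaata
Olfr1347 (chr7:6488435-6488515, minus strand): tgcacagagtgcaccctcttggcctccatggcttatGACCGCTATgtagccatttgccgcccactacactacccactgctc
Olfr380 (chr11:73453806-73453886, minus strand): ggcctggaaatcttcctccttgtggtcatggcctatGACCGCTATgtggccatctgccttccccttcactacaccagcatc
Olfr1371 (chr11:52213583-52213663, minus strand): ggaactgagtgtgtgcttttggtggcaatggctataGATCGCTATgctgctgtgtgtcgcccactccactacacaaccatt

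The 6 stretches were identical at 59.3 to 77.8% of positions in pairs, lowest for Olfr380 with Olfr1371 and highest for Olfr543 with Olfr545, which are near neighbours on chromosome 7. The second kind of site is the DNA just before a receptor gene's annotated start, wholly under a peak at Olfr212 and Olfr390. The 250 bases before each start, from RefSeq promoters of the same build, are shown. TAATGA, a core site of the homeodomain factor Lhx2, is in capitals. The annotated start of Olfr390 is its first coding base, so its 250 bases precede the start codon and may not be its promoter.

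Olfr212 (chr6:116506266-116506515, plus strand): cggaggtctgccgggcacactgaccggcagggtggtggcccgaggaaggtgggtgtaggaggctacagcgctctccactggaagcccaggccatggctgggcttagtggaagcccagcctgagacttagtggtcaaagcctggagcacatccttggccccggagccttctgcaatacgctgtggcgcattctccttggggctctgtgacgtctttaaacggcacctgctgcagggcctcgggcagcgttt
Olfr390 (chr11:73786690-73786939, plus strand): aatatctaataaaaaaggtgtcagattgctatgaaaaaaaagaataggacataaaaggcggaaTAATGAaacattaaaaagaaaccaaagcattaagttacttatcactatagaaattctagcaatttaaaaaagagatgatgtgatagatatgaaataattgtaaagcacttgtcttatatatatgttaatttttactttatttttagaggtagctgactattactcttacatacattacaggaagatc

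The third kind is a retrotransposon, shown by the 120 bases at the centre of the peak on the genome's plus strand, for the 3 repeat names with the most of the 383 peaks.

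L1Md_F2, nearest Olfr197 (chr16:59178654-59178773): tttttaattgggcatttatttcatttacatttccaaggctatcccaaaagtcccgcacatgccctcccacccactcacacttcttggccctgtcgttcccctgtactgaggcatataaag
L1Md_T, nearest Olfr164 (chr16:19145652-19145771): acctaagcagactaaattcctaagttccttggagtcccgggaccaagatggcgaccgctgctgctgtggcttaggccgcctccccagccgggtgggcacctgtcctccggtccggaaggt
IAPEz-int, nearest Olfr857 (chr9:19722725-19722844): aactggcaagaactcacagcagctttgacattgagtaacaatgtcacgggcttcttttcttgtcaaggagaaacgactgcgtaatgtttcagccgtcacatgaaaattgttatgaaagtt

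The central 128 bases of these peaks occur once, 489 times and 41 times in the assembly. The fourth kind is the tandem array under the strongest of the 383 peaks, 360.2 kb before Olfr161 on chromosome 16. Its most frequent word of 8 bases is in capitals.

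Array beyond Olfr161 (chr16:3231737-3231976, plus strand): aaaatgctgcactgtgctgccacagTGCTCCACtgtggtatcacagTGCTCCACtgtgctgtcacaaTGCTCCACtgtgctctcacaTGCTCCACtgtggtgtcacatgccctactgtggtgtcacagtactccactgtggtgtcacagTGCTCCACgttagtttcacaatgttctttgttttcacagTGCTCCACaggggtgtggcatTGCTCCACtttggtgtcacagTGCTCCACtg

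Receptor genes were the nearest gene of a WT-specific peak less often than protein-coding genes in general. A peak was assigned to 281 of the 1106 protein-coding receptor genes, or 25.4% (Wilson interval 22.9 to 28.1%), beside 47.9% of all protein-coding genes. Within 10 kb of the TSS the difference was smaller, with 187 receptor genes (16.9%, 14.8 to 19.2%) beside 20.7%. The nearest-gene rule gives a crowded gene little DNA to collect peaks from. The DNA lying nearer to a given TSS than to any other, called its stretch here, had a median of 16.9 kb for receptor genes and 26.3 kb for protein-coding genes. When receptor genes were put in 4 groups by stretch, 17.5% had a peak in the group with the shortest (49 of 280) and 36.6% in the group with the longest (102 of 279). Per Mb of stretch the same groups held 20.6 (15.5 to 26.9) and 17.7 (15.2 to 20.6) peaks, and these intervals overlapped. Stretches were measured between RefSeq gene starts, while peaks were assigned by the authors' annotation. Some peaks lay outside the stretch of their gene, the farthest at 451.2 kb where the longest stretch was 153.3 kb. These values are thus assigned peaks per Mb of stretch, not the density of peaks inside it. Most receptor genes with a peak had a single peak (225 of 283), while 39 had 2, 12 had 3 and 4 had 4. Only Olfr164 with 5, Olfr412 with 6 and Olfr161 with 17 had more.

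The 383 peaks were on 17 chromosomes, with 77 on chromosome 7, 67 on chromosome 2, 42 on chromosome 11, 41 on chromosome 16 and 34 on chromosome 9. Receptor genes and their pseudogenes, 1427 in all, formed 47 clusters when neighbours up to 500 kb apart were joined, and these clusters spanned 31.5 Mb. Another 22 genes stood alone, 8 of them without a -ps name. Of the 383 peaks, 315 (82.2%, 78.1 to 85.7%) were centred inside a cluster, 55 (14.4%, 11.2 to 18.2%) lay outside it beyond a terminal gene, and 13 (3.39%) were at lone genes. In 40 of the 47 clusters at least 1 receptor gene had a peak. The genes at the ends of clusters had a peak more often, at 38 of 90 (42.2%, 32.5 to 52.5%), than the genes inside, at 239 of 1019 (23.5%, 21.0 to 26.2%). The peaks of terminal genes were also farther off, at a median of 22.6 kb against 7.77 kb. Of these 85 peaks, 55 lay outside the cluster and 30 inside, and 17 were at the single gene Olfr161. By the nearest-gene rule a terminal gene also collects peaks of the DNA outside its cluster. The part of this rule, and of Olfr161, in the distance was not tested. Of the 8 lone genes, 6 had a peak, among them Olfr267 on chromosome 4, with 4 peaks at 15.8 to 102.6 kb.

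Density does not depend on the nearest-gene rule, so all peaks were counted whatever gene they were assigned to. Inside the clusters there were 388 peaks, or 12.3 per Mb (exact Poisson interval 11.1 to 13.6). Of these, 315 were the receptor peaks above, 13 were at -ps names and 60 were at other genes lying between the receptors. Beyond the clusters the density was 16.6 per Mb (14.1 to 19.4) at 0 to 100 kb, 16.5 (14.5 to 18.8) at 100 to 250 kb and 16.1 (14.5 to 17.8) at 250 to 500 kb. Over chromosomes 1 to 19 and X it was 13.3 per Mb. The clusters thus held fewer peaks per Mb than the DNA beside them, and their interval included the chromosome value. Inside, the density was lowest more than 500 kb from either end, at 10.1 per Mb (8.21 to 12.3), and highest at 50 to 100 kb from an end, at 18.5 (14.2 to 23.7). At 0 to 50 kb from an end it was 12.9 (9.66 to 16.9). GC content was 37.7% in the deepest of these zones and 40.4% at 50 to 100 kb, and these densities carry no allowance for GC. Only long clusters have DNA in the deepest zone. The longest, Olfr987 to Olfr1274, Olfr543 to Olfr692 and Olfr160 to Olfr986, held 5.92, 17.98 and 4.44 per Mb over their whole spans. Depth inside a cluster and the identity of the cluster were not told apart.

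Clusters also differed in base composition from the DNA around them, and peak density followed base composition closely. GC content was 39.1% inside the clusters, 42.6% at 0 to 100 kb beyond them and 41.8% over the chromosomes. Over chromosomes 1 to 19 and X, bases whose surrounding 500 bp had 35 to 40% GC held 0.728 peaks per Mb (0.665 to 0.796), those with 45 to 50% held 27.4 (26.9 to 27.8), and those with 50 to 55% held 59.96 (58.9 to 61.03). Inside the clusters, 24.97% of the DNA lay under 35% GC and 33.0% at 35 to 40%, where the chromosomes had 14.4% and 26% of theirs. At 40 to 45% GC the clusters held 10.3 peaks per Mb (8.20 to 12.9) where the chromosomes held 6.30. At 45 to 50% they held 43.7 (37.5 to 50.6), and at 50 to 55% they held 94.4 (77.4 to 114.1). Each of these 3 values lay above the chromosome value of the same GC step, with intervals that did not meet. The DNA up to 500 kb beyond the clusters held 26 (23.0 to 29.3) and 53.7 (47.5 to 60.4) at the last 2 of these steps, below the values inside the clusters with intervals that did not meet those inside. At 40 to 45% they held 7.46 (6.06 to 9.10), an interval that met the one inside. At 55% GC or more the clusters held 41.8 (21.6 to 73.01), the DNA beyond them 43.2 (34.6 to 53.3) and the chromosomes 36.8, and there, as below 40%, the interval inside the clusters overlapped that of the DNA beyond.

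**Figure D1:**
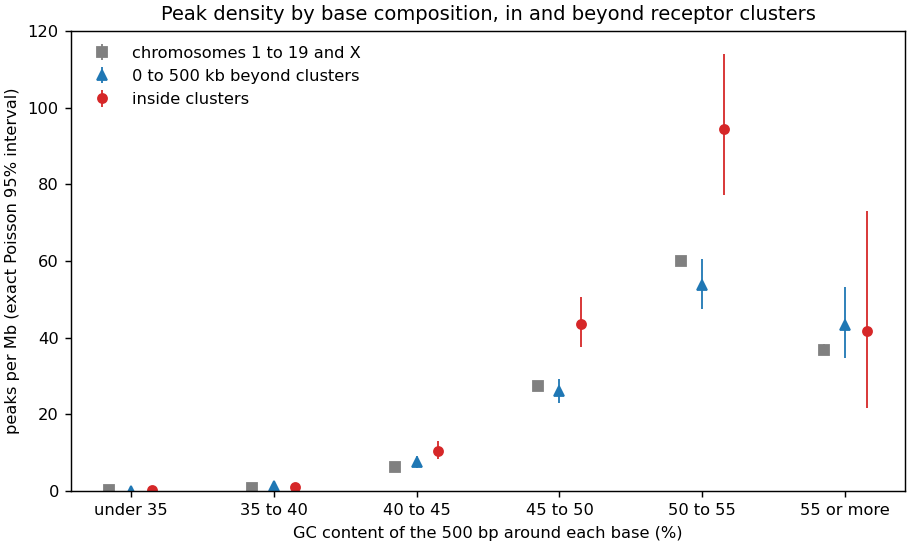
Peaks per Mb (y axis, exact Poisson 95% intervals as bars) by the GC content of the 500 bp around each base (x axis, %), for chromosomes 1 to 19 and X (squares), the DNA 0 to 500 kb beyond receptor clusters (triangles) and the inside of receptor clusters (circles). At 45 to 50% GC the values are 27.4, 26 and 43.7 peaks per Mb, and at 50 to 55% they are 59.96, 53.7 and 94.4.

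Summed over steps of 2.5% GC, the chromosome densities would give 241.8 peaks in the DNA of the clusters, and 388 were listed, a ratio of 1.60 (1.45 to 1.77). Without this allowance the ratio to the chromosome density was 0.927 (0.837 to 1.02), so the direction turned with the allowance for GC. For the DNA up to 500 kb beyond the clusters the ratio was 0.973 (0.905 to 1.05). When repeat-masked and unmasked DNA were treated apart as well, the ratio inside the clusters was 1.47 (1.33 to 1.63). The ratio without the Olfr161 cluster was 1.59 (1.43 to 1.75). How much of the dependence on GC arose in the chromatin and how much in shearing, sequencing or peak calling was not tested.

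The 17 clusters with at least 20 genes ranged from 4.44 to 23.7 peaks per Mb. The densest were on chromosome 11, from Olfr20 to Olfr412 (chr11:73350859-74365609), with 24 peaks in 44 genes' span or 23.7 per Mb (15.2 to 35.2), and on chromosome 2, from Olfr334-ps1 to Olfr368 (chr2:36285060-37332732), with 23 peaks or 22.0 per Mb (13.9 to 32.9). In the chromosome 11 cluster 17 of 30 receptor genes without -ps had a peak, and in the chromosome 2 cluster 12 of 27. The sparsest were on chromosomes 2 and 9. From Olfr987 to Olfr1274 (chr2:85330967-90401674), with 293 genes the most populous of all, there were 30 peaks or 5.92 per Mb (3.99 to 8.45), and 29 of 225 receptor genes had one. From Olfr160 to Olfr986 (chr9:37711348-40188094) there were 11 peaks or 4.44 per Mb (2.22 to 7.95), and 10 of 97 genes had one. These 2 intervals lay below those of the 2 densest clusters. A second cluster on chromosome 9, from Olfr24 to Olfr18, held 26 peaks in 1.58 Mb or 16.4 per Mb (10.7 to 24.1). With GC allowed for, 14 of the 17 ratios to the chromosomes were above 1, and the interval lay wholly above 1 in 9 and wholly below it in none. The chromosome 11 and chromosome 2 clusters stood at 3.06 (1.96 to 4.56) and 3.06 (1.94 to 4.59), while the clusters of Olfr987 to Olfr1274 and Olfr160 to Olfr986 stood at 1.17 (0.791 to 1.67) and 0.823 (0.411 to 1.47).

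**Figure D2:**
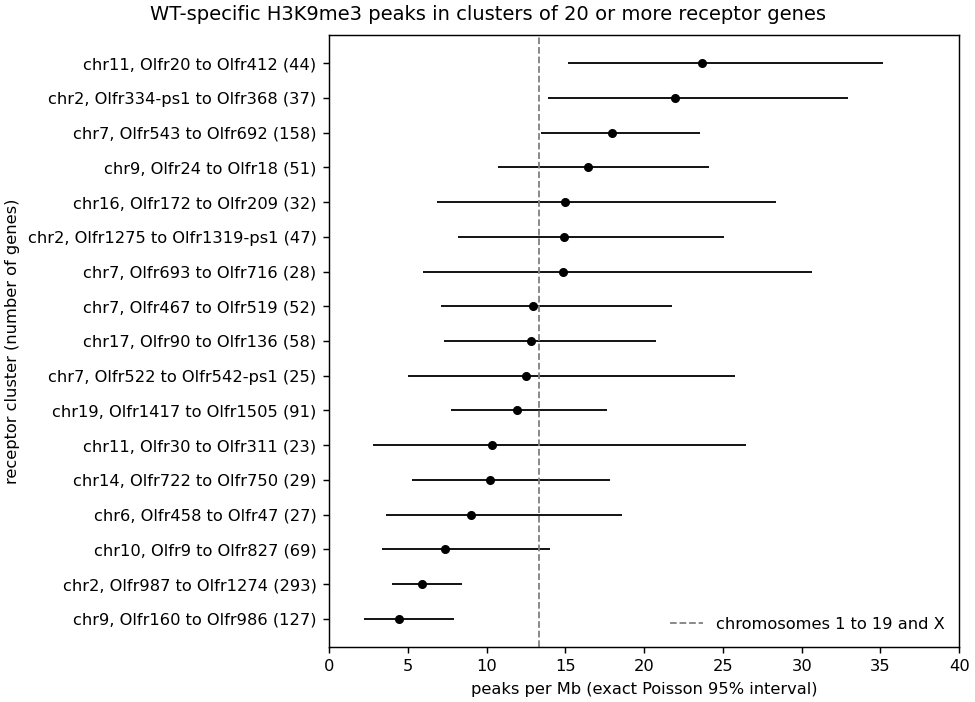
Peaks per Mb (x axis, exact Poisson 95% intervals as bars) in each receptor cluster of at least 20 genes (y axis, with the first and last gene and the number of genes), and the density of chromosomes 1 to 19 and X as a dashed line. The clusters range from 4.44 to 23.7 peaks per Mb around the chromosome value of 13.3.

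Class I receptors, the older group that resembles the receptors of fish, lie together on chromosome 7 around the beta-globin genes, from Olfr543 to Olfr692 (chr7:102476773-105369317). This cluster held 52 peaks or 17.98 per Mb (13.4 to 23.6), and the other 46 clusters together held 11.8 per Mb (10.5 to 13.1). With GC allowed for, its ratio to the chromosomes was 2.28 (1.70 to 2.99), and other clusters of at least 20 genes ranked above it with ratios up to 3.06. Of the 52 peaks, 35 were at receptor genes and 17 at others. The shares of receptor genes with a peak had overlapping intervals, at 31 of 127 (24.4%, 17.8 to 32.6%) in the class I cluster and 246 of 982 (25.1%, 22.4 to 27.9%) elsewhere. A peak lay over the coding sequence of 12 of 126 class I genes (9.52%, 5.53 to 15.9%) and of 38 of 972 in the other clusters (3.91%, 2.86 to 5.32%). Among single clusters of at least 20 genes this share ranged from 0 to 16.7%, highest from Olfr20 to Olfr412 on chromosome 11. Such shares rose with the GC content of the coding sequence, as given below, and GC was not allowed for here. Of the class I peaks, 31.4% (18.6 to 48.0%) were centred on L1, and of those in the other clusters 39.4% (34.3 to 44.7%).

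Most peaks lay near their receptor genes rather than on them, though the share in exons was above that of the whole list. Their median distance to the TSS was 9.20 kb, from 0.141 to 451.2 kb, while the median over all peaks of the list was 37.4 kb. The short stretches of receptor genes, given above, limit this distance. The median was 11.1 kb for peaks labelled with a repeat and 4.84 kb for the others, a difference to which the labelling contributes, as given below. There were 45 peaks (11.7%) under 1 kb, 158 (41.3%) at 1 to 10 kb, 163 (42.6%) at 10 to 100 kb and 17 (4.44%) at 100 kb or more. Upstream and downstream sides were about equal, with 46.7% (41.8 to 51.7%) upstream. The authors' annotation placed 83.8% of the peaks between genes, 44 (11.5%, 8.67 to 15.1%) in exons and 9 (2.35%) in introns, where the whole list had 2.91% in exons and 34.2% in introns. A peak overlapped the body of 55 receptor genes (4.97%, 3.84 to 6.42%), beside 31.2% of all protein-coding genes, whose bodies are mostly longer. In 71.6% of the receptor gene models the annotated start is the first coding base, so distances count from the start codon and the promoter window often lies downstream of the true one.

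**Figure D3:**
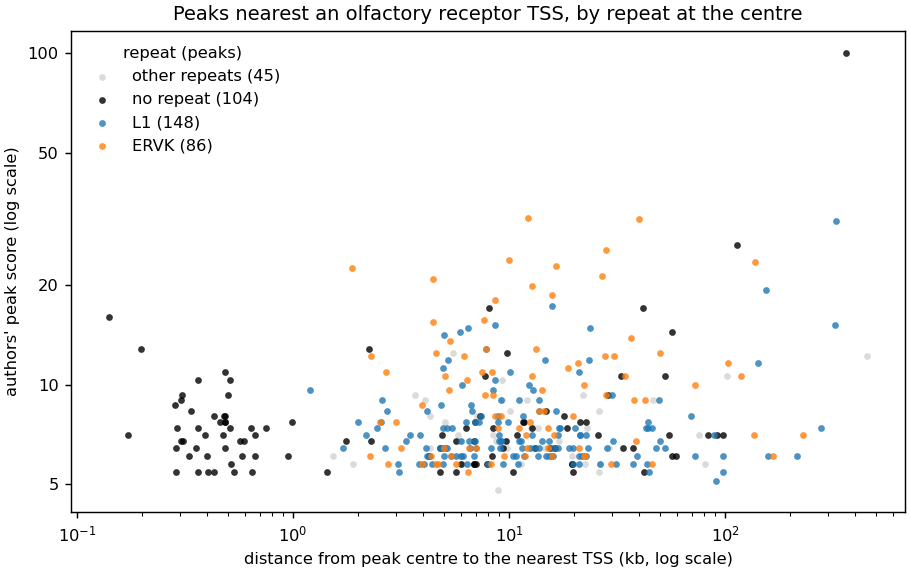
Each point is 1 of the 383 peaks at olfactory receptor genes, with its distance to the nearest TSS (x axis, kb, log scale) and the authors' peak score (y axis, log scale), coloured by the repeat at its centre. The 45 peaks under 1 kb are labelled exon, promoter or gene end and carry no repeat name, and the points above a score of 20 are mostly ERVK.

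None of the 45 peaks under 1 kb carried a repeat name, and 42 of them overlapped receptor coding sequence. The authors' annotation gives each peak a single detailed label, such as a gene part or a repeat. All 45 were labelled exon, promoter or gene end, so a repeat at their centre could go unnamed. Peaks covered coding bases of 50 receptor genes (4.52%, 3.45 to 5.91%), beside 11.4% of all protein-coding genes, and 49 of these 50 peaks were centred in the coding sequence itself. Their median overlap was 501 bp, the whole width of the standard peak. Their scores ran from 5.46 to 10.9 with a median of 7.06, the median of the whole list. The highest were at Olfr656 (10.9), Olfr543 and Olfr671 (10.3 each) and Olfr1418 and Olfr1471 (9.31 each), followed by Olfr1347 (8.99), Olfr380 (8.66), Olfr545 (8.34) and Olfr1371 (8.02). Olfr656, Olfr543, Olfr671 and Olfr545 are class I genes. The central 128 bases occurred once in the assembly in 45 of the 49. Copies that differ by a few bases were not counted. The peak at Olfr1418 has a centre found 2 times and is uncertain between its copies. The assigned name was not always the gene under the peak, since the peak over Olfr558 was assigned to Olfr33 and that over Olfr1358 to Ilvbl.

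Receptor coding sequence took up 1.04 Mb of the clusters and held 47.1 peak centres per Mb (34.9 to 62.3), while the rest of the clusters held 11.1 per Mb (9.98 to 12.4). The ratio of these densities was 4.23. Coding sequence of the clusters is richer in GC than its surroundings, and the peaks sat on its GC-rich members. Among 1104 receptor coding sequences, median GC was 48.3% for the 50 under a peak and 43.6% for the others. When the genes were put in 4 groups by GC, peaks lay over 0 of 278 in the lowest group, which allows a share of up to 1.36%, 3 of 274, 16 of 276 and 31 of 276 (11.2%, 8.03 to 15.5%) in the highest. At 45 to 50% GC, coding sequence held 77.7 peaks per Mb (47.5 to 120.1), unmasked non-coding DNA of the clusters 31.6 (23.8 to 41) and masked DNA 49.8 (40.6 to 60.5). At 50 to 55% the same 3 held 226.9 (145.4 to 337.6), 84.7 (60.8 to 114.9) and 77.3 (55.7 to 104.4). Coding sequence thus stood above unmasked non-coding DNA at both of these GC steps with intervals that did not meet, while at 45 to 50% its interval overlapped that of masked DNA. At 40 to 45% coding sequence held 3 peaks or 7.63 per Mb (1.57 to 22.3), where unmasked DNA held 5.69 and masked DNA 14.9, and at 55% GC or more it held 2 peaks or 108.8 per Mb (13.2 to 393.2), where unmasked DNA held 48.8. The intervals overlapped at both of these steps. With GC allowed for as above, the ratio to the chromosomes was 2.92 (2.16 to 3.87) for receptor coding sequence and 1.51 (1.35 to 1.68) for the rest of the clusters.

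**Figure D4:**
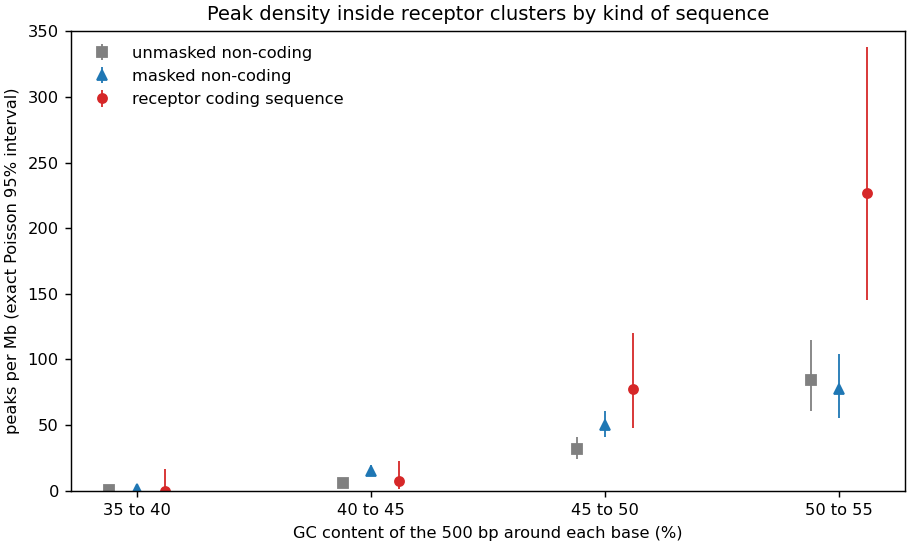
Peaks per Mb inside receptor clusters (y axis, exact Poisson 95% intervals as bars) by the GC content of the 500 bp around each base (x axis, %), for receptor coding sequence (circles), repeat-masked non-coding DNA (triangles) and unmasked non-coding DNA (squares). At 50 to 55% GC the values are 226.9, 77.3 and 84.7 peaks per Mb, and at 35 to 40% coding sequence held no peak.

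Other families of coding sequence gave both smaller and larger ratios. All other protein-coding genes outside the Olfr and Vmn1r families held 29.4 peaks per Mb of coding sequence (27.7 to 31.3), at a GC content of 52.0%, and the ratio to the chromosomes with GC allowed for was 1.05 (0.992 to 1.12). Coding segments of at least 800 bp, closer in length to a receptor's single coding exon, gave 35.2 per Mb (31.0 to 39.8) and a ratio of 1.29 (1.13 to 1.45). The single coding exons of Vmn1r genes, which encode vomeronasal receptors, held 19 peaks or 89.5 per Mb (53.9 to 139.8) at a GC content of 41.5%. Their ratio of 18.5 (11.1 to 28.8), with 1.03 peaks expected, was above that of the olfactory receptors. Of Vmn1r peaks off repeats, 57.6% had a centre found once in the assembly, beside 97.1% of olfactory receptor peaks off repeats. The Vmn1r ratio was not redone on centres found once, so its peaks may be misplaced between copies. Within receptor coding sequence the peak centres were toward the middle. Their median place was 45.9% of the way from the 5′ end, with quartiles of 34.9 and 53.2%, and 32 of 49 lay in the middle when the sequence was cut in 3 equal parts. The stretches shown for 6 of these genes lie in this middle region and wholly under their peaks. The part of peak width and local GC in the place of the centres was not tested. The sequence TTGGCA, part of the site bound by NFI factors such as Nfix, was in 33 of the 50 coding sequences under a peak (66%, 52.2 to 77.6%) and 467 of the 1054 others (44.3%, 41.3 to 47.3%), which differ in GC as given above.

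Promoters were seldom covered. The window from 250 bp before to 50 bp after the start met a peak at 9 receptor genes (0.814%, 0.429 to 1.54%), beside 1.01% of all protein-coding genes. In 7 of these 9 the peak was centred in the coding sequence and reached into the window. The exceptions were Olfr212 and Olfr390, whose sequences are shown above. At Olfr212 on chromosome 6 (chr6:116506125-116506625) the peak had a score of 16 and was centred 0.141 kb before the start, nearest of all 383. This promoter was rich in GC, at 63.2%, where the median receptor promoter had 34.0% and the median promoter of any gene 52.4%. The peak over Olfr390 on chromosome 11 (chr11:73786056-73787430) was 0.197 kb before the start with a score of 12.8. The 250 bases before this start, which is the first coding base, had 25.6% GC. TAATGA occurred once in the Olfr390 bases and was not found in those of Olfr212. On either strand it occurred in 25.3% of 945 receptor promoter windows (22.6 to 28.2%) and 8.59% of all promoter windows of that length. Receptor windows had the lower GC, as given above, TAATGA is mostly A and T, and GC was not allowed for. Where the annotated start is the first coding base, as in most receptor gene models, these windows need not hold the promoter.

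Repeats lay under 72.8% (68.2 to 77.1%) of the receptor peaks and 54.0% of all peaks. L1 elements, the abundant LINE retrotransposons of the mouse, held 148 of the 383 peaks (38.6%, 33.9 to 43.6%), beside 16.3% of the whole list. ERVK, the endogenous retroviruses that include the IAP elements, held 86 (22.5%, 18.6 to 26.9%), beside 13.0%. In contrast, ERVL-MaLR elements held 3.66% (2.19 to 6.04%) beside 8.96%, and SINEs held 4 peaks (1.04%, 0.407 to 2.65%) beside 8.05%. Repeats of all kinds masked 46.8% of the DNA of the clusters and 34.3% of the chromosomes. Among all 388 peaks inside the clusters 38.1% were on L1, against 17.3% of those at 0 to 100 kb beyond. The L1 content of the DNA was not measured here, and the part of repeat content in these shares was not tested.

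**Figure D5:**
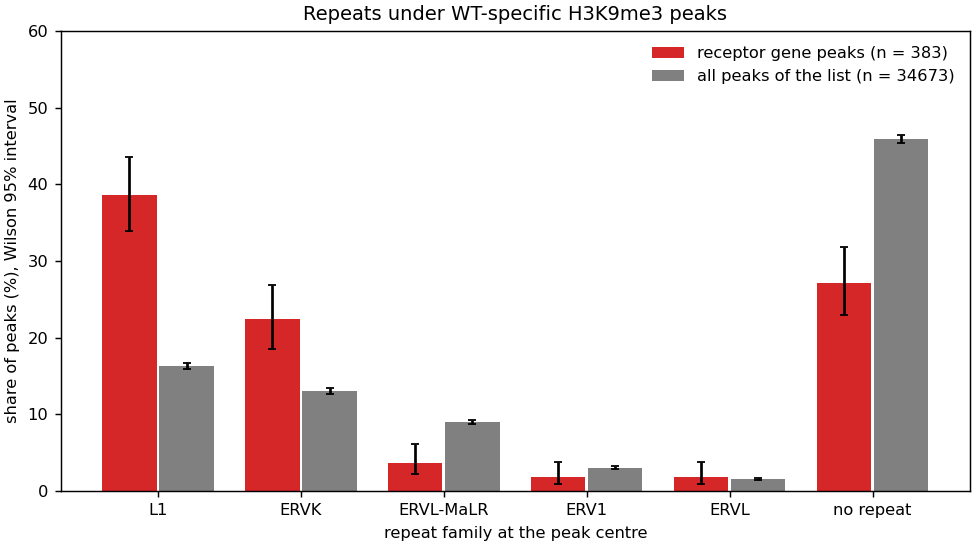
Share of peaks (y axis, %, Wilson 95% intervals as bars) by repeat family at the peak centre (x axis), for the 383 receptor gene peaks and for all 34673 peaks. L1 stands at 38.6% against 16.3% and ERVK at 22.5% against 13.0%, while peaks with no repeat stand at 27.2% against 45.97%.

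The L1 peaks of receptor genes fell in several subfamilies. Lx elements, an old rodent group, made up 36.5% of them (29.2 to 44.5%) and 37.3% of all L1 peaks, and L1Md_F elements made up 20.9% (15.2 to 28.2%) and 19.3%. L1_Mus elements made up 16.9% (11.7 to 23.7%) and 12.6%, and L1Md_A with L1Md_Gf made up 4.05% (1.87 to 8.56%) and 7.04%. Each of these 4 intervals included the share among all L1 peaks. By name, L1Md_F2 had 22 peaks at 22 genes and L1Md_T had 18. IAPEz-int, from the coding part of IAP retroviruses, followed with 14. L1_Mus3 had 11 and Lx2 with 10. Scores differed by family, with a median of 8.99 for ERVK, 12.2 for IAPEz-int and 6.74 for L1. The authors' score has no stated scale and was used only to rank peaks. Of the receptor peaks, 13.8% (10.7 to 17.7%) scored at least 11.2, beside 10.2% of all peaks, and without Olfr161 they were 46 of 366.

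The strongest peaks were mainly on endogenous retroviruses between genes. Olfr161, described below, had peaks scoring 100.1 and 26.3 on no repeat, 31.1 on the L1 element Lx and 23.4 on the ERVK element RMER17B. Olfr213 on chromosome 6 had a peak on MMERVK10D3_I-int, 12.2 kb upstream with a score of 31.8. Olfr15 had one on IAPEY3-int, 40.02 kb upstream with a score of 31.5. Olfr385 in the dense chromosome 11 cluster had one on RLTR10-int, 28.2 kb downstream with a score of 25.4, and Olfr857 on chromosome 9 one on IAPEz-int, 9.96 kb downstream with a score of 23.7. Olfr693, the first gene of its cluster, had one on ETnERV-int with a score of 22.8. Olfr212 had, besides its promoter peak, one on MMERVK9C_I-int in its intron with a score of 22.5. The central 128 bases occurred once, as an exact match, in the assembly in 330 of 383 (86.2%, 82.3 to 89.3%), beside 89.0% of all peaks. At least 10 copies were found for 30, among them 10 on L1Md_T and 9 on IAPEz-int, and since a read matching several places was given a single location by the authors, the position of these peaks is uncertain.

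Olfr161 stood apart from every other receptor gene, with 17 peaks at 38.8 to 451.2 kb and scores of 6.10 to 100.1. It is the first gene of a cluster of 4 on chromosome 16, near the start of the assembled chromosome at base 3000001. Of its 17 peaks, 13 lay outside the cluster and 4 inside it. ERVK elements held 6, L1 elements 4, and 5 were on no annotated repeat. The strongest of the 383 peaks was among the last group (chr16:3231627-3232766), with a score of 100.1, where the next highest receptor peak scored 31.8. Its sequence, shown above, is a tandem array. Shifted by 21 bp against itself it was identical at 51.1% of positions, and the word TGCTCCAC occurred 16 times in its 1140 bp. That word was found on either strand in the 1 kb around 7.32% of all peaks. The cluster's last gene, Olfr15, had 3 peaks at 37.9 to 43.9 kb, and with 11 peaks in 0.248 Mb the cluster's density was 44.4 per Mb (22.2 to 79.5). Other small clusters had similar or higher densities, such as Olfr211 to Olfr215 at 44.3 (12.1 to 113.4) and Olfr462 to Olfr464 at 76.8 (9.30 to 277.4). With GC allowed for, the ratio of the Olfr161 cluster to the chromosomes was 2.77 (1.38 to 4.95), where the dense chromosome 11 and chromosome 2 clusters had 3.06 each.

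Of the other genes with at least 4 peaks, Olfr412, Olfr164, Olfr57 and Olfr1350 were at cluster ends, Olfr362 was interior and Olfr267 stood alone. Olfr412, the last gene of the chromosome 11 cluster, had 6 peaks, all outside the cluster at 1.76 to 98.0 kb and with scores of only 5.46 to 7.06, and 4 of them were on no repeat. Olfr164 on chromosome 16 had 5 peaks at 21.9 to 157.5 kb, 4 of them outside. Olfr57 on chromosome 10 had 4, all outside at 16.8 to 28.7 kb, and Olfr1350 on chromosome 7 had 4, 3 of them outside, with a score of up to 17.3 on Lx2. Olfr362 in the dense chromosome 2 cluster was an interior gene with 4 peaks, 3 on L1, at 9.19 to 43.9 kb. Another 12 genes had 3 peaks, among them Olfr835 on chromosome 9, with 2 on ERVK and 1 on no repeat, and Olfr368, the last gene of the chromosome 2 cluster, whose 2 peaks outside the cluster were on IAP elements of 20 and 189 copies.

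Of 10 receptors that have been studied closely, 2 had a peak, near the share of 25.3% over all 1117 receptor genes. Olfr2, also known as I7, a receptor for octanal, had a single peak 11.1 kb upstream on an L1 element (Lx3_Mus) with a score of 8.99. Olfr1507, also known as MOR28 and the classical gene under the H enhancer, had 3 peaks, at 13.7, 46.2 and 227.6 kb, all outside its cluster on chromosome 14. No peak was assigned to Olfr17 (P2), Olfr160 (M72), Olfr151 (M71), Olfr16 (MOR23), Olfr73 (a receptor for eugenol), Olfr78 or Olfr544. Olfr558 had none by assignment, though the peak named for Olfr33 lay over its coding sequence.

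Other genes of olfactory signalling and receptor choice were taken from a list of 31. Of these, 20 had a peak (64.5%, 46.9 to 78.9%), an interval that included the background of 47.9%. Among the transduction genes, Ano2, the chloride channel of the cilia, had 9 peaks, 7 of them in introns. Gng13, a G protein gamma subunit, had 4, and Gnal, the G protein alpha subunit of smell, had 3. Cnga2, the channel subunit opened by cyclic AMP, had 1 peak, 0.067 kb from its TSS with a score of 7.38. Adcy3, the adenylyl cyclase of the cilia, had 1 in an intron, and Omp, the marker of mature sensory neurons, had 1 in its 3′ UTR. Rtp1 and Rtp2, which carry receptors to the membrane, had 3 each. Among the genes of receptor choice, Lbr, a lamin receptor lost as these neurons form, had 6 peaks, all between genes, and Ebf1 and Lhx2 had 1 each. No peak was assigned to the other 11, which were Stoml3, Ric8b, Ldb1, Emx2, Kdm1a, Setdb1, Ehmt2, Suv39h1, Suv39h2, Cbx1 and Cbx5.

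The vomeronasal receptors, which detect pheromones and also lie in clusters, had more peaks. A peak was assigned to 120 of 229 Vmn1r genes (52.4%, 45.9 to 58.8%) and 88 of 125 Vmn2r genes (70.4%, 61.9 to 77.7%), and the interval of the olfactory receptors, 22.9 to 28.0% over all 1117, did not meet either. Assigned peaks per Mb of stretch, with the limit on stretch given above, were 38.7, 34.6 and 17.4 in the 3 families. The share of peaks on L1 was similar, at 44.5%, 46.0% and 38.6%. The share whose centre occurs once in the assembly was lower in the vomeronasal families, at 61.9% (55.5 to 68.0%) and 71.7% (65.3 to 77.3%), than in the olfactory family at 86.2%. The part of copy number in the difference was not tested.

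In the 1 kb around each receptor peak, TTGGCA was found on either strand in 47.3% (42.3 to 52.3%), beside 43.4% of all peaks and 38.9% of all 1 kb windows of the clusters. TAATGA was found in 43.3% (38.5 to 48.3%), beside 34.9% of all peaks and 51.4% of cluster windows, which are richer in A and T. The Ebf palindrome TCCCNNGGGA was found in 1.57% (0.720 to 3.38%), beside 2.57% and 1.16%. Receptor peaks were also more scattered than peaks in general, with 22.2% (18.3 to 26.6%) lying within 10 kb of another peak where 33.3% of all peaks did.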

How the data were processed

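Values come from a single deposited list. Per the labels and the study's methods, the authors aligned reads to mm10 (Bowtie2 2.2.8), gave each read its best location, counted 1 tag per position, called peaks (HOMER 4.10.1) at 4 times the tags of the local 10 kb, and listed those present in WT and absent in mutant BG. The sources used here do not say how libraries were merged or whether input, mutant BG or both were the background. The deposited peak score is the authors' and has no stated scale. The other deposited columns used are positions, distances to the TSS and annotations. Receptor genes, coding sequence, promoters and soft-masking are RefSeq GRCm38.p6. Clusters joined Olfr genes at most 500 kb apart. Expected numbers applied chromosome densities per GC step, with GC taken over 500 bp. Copies of each peak's central 128 bases were counted on both strands. Counting was checked on simulated data. Shares carry Wilson and densities exact Poisson intervals, and no p-value was computed. Members, lists and the rule for genes named (the 10 with most peaks, those of the 10 highest scores, up to 10 by coding overlap and score, the end genes of the 5 clusters with most peaks, and 10 well-known receptors) were chosen with earlier results of these data known. The GC analysis and coding densities were added after seeing the data. Python 3.11.15, pandas 2.3.3, numpy 2.4.6, pysam 0.24.0 and scipy 1.17.1 were used.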

Additional observations from a re-analysis of the deposited data

How the results depend on the processing

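Receptor genes with a peak numbered 283, and fell to 165 when only peaks of at least the median score counted, to 92 with peaks off repeats, to 188 within 10 kb of the TSS and to 55 by overlap of the gene body, each a smaller set of peaks by construction. Density inside clusters fell likewise from 12.3 to 6.29 per Mb at the median score and to 3.72 off repeats, while the chromosomes went from 13.3 to 6.91 and 6.20 and the DNA 0 to 100 kb beyond from 16.6 to 9.47 and 8.19. The clusters' interval included the chromosome value for all peaks and at the median score (5.44 to 7.23), and lay below it off repeats (3.07 to 4.45). The median distance was 4.84 kb off repeats, the L1 share was 33.5% at the median score, and the density in receptor coding sequence was 26.9 per Mb at the median score, where the rest of the clusters held 5.58. An allowance for GC, added after seeing the data, turned the ratio of the clusters to the chromosomes from 0.927 to 1.60, to 1.47 with masking, to 1.62 at the median score and to 1.56 with centres found once. Joining genes at 250 or 1000 kb, counting peaks by any overlap, including -ps names (292 genes), and asking for at least 50% of the peak over coding sequence (49 genes) moved no value beyond its interval or by over 1.5 times. No paired analysis was possible because the list has no value per library.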
